A study of Mus musculus with 14 samples.

Results

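The Rab small GTPases of mouse were examined in translating ribosome affinity purification (TRAP) libraries of hippocampal parvalbumin (PV) neurons. Members were the protein-coding genes whose symbol is Rab followed by a number and, where present, a paralog letter or digit. The count table held 59 such genes among 39017 gene identifiers, and 56 of them passed the filter on low counts, among 21298 genes tested. The mice were adult males of C57BL/6 background and carried PV-Cre and a Cre-dependent EGFP-L10a transgene, so that ribosomes were tagged in cells with Cre driven from the PV gene. TRAP RNA was measured in samples of non-defeated mice (ND, n = 4 samples) and of mice that were resilient (Res, n = 4) or susceptible (Sus, n = 3) after chronic social defeat stress, in which mice are repeatedly exposed to aggressive males and then sorted by a social interaction test. Input was total hippocampal RNA of non-defeated mice (n = 3), although the labels give the molecule type of these libraries as translating RNA as well. All groups shared the transgenes, and each library is named here by its group and the number in its sample name.

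Rab proteins are small GTPases that switch between a GTP-bound form on membranes and a GDP-bound form. Exchange factors load GTP, GTPase-activating proteins (GAPs) promote its hydrolysis, and GDP dissociation inhibitors take the inactive, prenylated protein off the membrane. Each Rab marks a set of compartments and recruits effectors there, such as tethers, motors and the scaffold RIM at presynaptic active zones. In neurons Rab3 proteins sit on synaptic vesicles, Rab5 proteins on early endosomes, Rab11 and Rab14 on recycling routes, Rab7 on late endosomes and Rab1, Rab2 and Rab6 along the endoplasmic reticulum and Golgi.

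The libraries held 64110214 to 94726962 counts. Rab genes took 1.05% to 1.18% of the counts in the 11 TRAP libraries and 0.894% to 0.921% in input. The 6 genes used as markers of PV interneurons were Pvalb, Gad1, Gad2, Kcnc1, Syt2 and Erbb4, not all of which are particular to these cells. All stood above input in ND, with a summed level of 3752 to 4134 against 519 to 621 CPM (normalized counts per 1e+06 counts). Markers of excitatory neurons (610 to 818 against 1721 to 2058 CPM) and oligodendrocytes (467 to 665 against 1740 to 2060 CPM) were lower in TRAP but not absent. Haemoglobin genes summed to 638 to 813 CPM in input, 96.8 to 198 in ND, 108 to 490 in Res and 738 to 982 in Sus. The susceptible libraries thus stood apart from the other TRAP libraries, and their range overlapped that of input. Of the 3 haemoglobin genes, 2 passed an adjusted p under 0.05 in Sus against ND and 3 in Sus against Res. Endothelial markers summed to 2.36 to 3.29 CPM in input, 3.29 to 5.74 in ND, 3.99 to 17.3 in Res and 7.92 to 12.4 in Sus. Markers of other interneurons (Sst, Vip, Cck and Npy) summed to 249 to 290 CPM in input, 389 to 597 in ND, 382 to 760 in Res and 453 to 843 in Sus. The sum hides opposite signs, as 2 of the 4 were higher and 2 lower in ND against input at an adjusted p under 0.05. At an unadjusted p under 0.05, 3 of these 4 (Sst, Cck and Npy) were higher in Sus against ND, with a median log2 fold change of 0.44 over the list, and 1 (Cck) in Sus against Res, and 0 passed an adjusted p under 0.05 in either. Astrocyte markers summed to 448 to 486 CPM in input, 149 to 243 in ND, 152 to 256 in Res and 145 to 310 in Sus. Microglia markers summed to 54.4 to 61.0 CPM in input, 22.3 to 29.7 in ND, 23.1 to 29.5 in Res and 22.8 to 30.9 in Sus. The part of these levels in the stress comparisons was not tested.

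Compared per length, Rab3a had the highest level of the family in PV neurons. In TRAP of non-defeated mice it reached 1049 ± 61.4 RPKM (SD, n = 4), which was 30.1% of the RPKM summed over all members. Rab6a, which acts in Golgi traffic, followed with 393 ± 29.1 RPKM. Rab3b, a Rab3 paralog known for its part in plasticity of hippocampal inhibitory synapses, came next with 253 ± 51.8 RPKM, and lay close to Rab2a of the early secretory route with 243 ± 6.28 RPKM. The SDs of Rab3b and Rab2a overlapped, so their order was not resolved. Rab7, the late endosomal Rab, reached 219 ± 9.61 RPKM and completed the first 5. In input Rab3a was also first, with 403 ± 0.844 RPKM and 16.8% of the family, whereas Rab3b stood at rank 18 with 31.3 ± 1.50 RPKM. The RPKM sum over all members was 3486 ± 133 in ND and 2407 ± 44.1 in input, and most of this gap lay in the 8 genes of synaptic and regulated exocytosis, with 1340 ± 109 against 482 ± 2.0 RPKM. The family sum was 3508 ± 137 RPKM in Res and 3499 ± 157 in Sus, within 1 SD of ND.

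The promoters of the Rab3 genes that stood above input and of the early and recycling endosome genes Rab5b and Rab14, which had the smallest p-values between stress groups, are printed from RefSeq (GRCm38.p6) as the 250 bases before the annotated start, 5′ to 3′ on the gene's strand. Capitals mark the GC box, which is GGGCGG read on either strand, and the TATA box, which is TATAAA. Rab3a lies on the plus strand at chr8:70754453-70754702, Rab3b on the plus strand at chr4:108878820-108879069, Rab5b on the minus strand at chr10:128696269-128696518 and Rab14 on the minus strand at chr2:35201121-35201370.
Rab3a: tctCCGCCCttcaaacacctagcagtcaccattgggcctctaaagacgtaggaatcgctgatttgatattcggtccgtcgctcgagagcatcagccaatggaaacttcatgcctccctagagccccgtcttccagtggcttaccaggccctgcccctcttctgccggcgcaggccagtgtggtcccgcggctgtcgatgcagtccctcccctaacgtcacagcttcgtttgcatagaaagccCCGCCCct
Rab3b: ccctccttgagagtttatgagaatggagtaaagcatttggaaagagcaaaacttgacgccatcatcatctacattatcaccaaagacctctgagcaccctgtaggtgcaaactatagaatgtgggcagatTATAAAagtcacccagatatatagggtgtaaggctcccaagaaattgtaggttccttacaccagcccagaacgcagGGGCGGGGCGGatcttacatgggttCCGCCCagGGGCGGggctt
Rab5b: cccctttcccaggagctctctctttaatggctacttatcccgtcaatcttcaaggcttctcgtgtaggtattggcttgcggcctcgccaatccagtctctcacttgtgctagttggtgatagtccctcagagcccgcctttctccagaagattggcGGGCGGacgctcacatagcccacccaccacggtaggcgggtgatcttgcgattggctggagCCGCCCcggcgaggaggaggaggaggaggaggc
Rab14: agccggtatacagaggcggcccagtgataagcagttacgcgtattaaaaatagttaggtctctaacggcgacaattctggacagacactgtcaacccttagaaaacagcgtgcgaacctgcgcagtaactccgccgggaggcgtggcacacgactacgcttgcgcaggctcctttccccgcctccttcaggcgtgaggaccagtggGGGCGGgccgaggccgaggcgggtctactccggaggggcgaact

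Each of these 4 promoters held GGGCGG, and among them Rab3b alone held TATAAA. A promoter was found for 48 members. On either strand, GGGCGG was present in 68.8% of the member promoters (33 of 48) and in 33.0% of the 32536 promoters of all genes in the RefSeq table, which include those of noncoding genes. TATAAA was present in 8.33% of member promoters and 12.3% of all promoters, the E-box CACGTG in 8.33% and 6.04%, and the cAMP response element TGACGTCA in 4.17% and 1.56%. Overlapping matches, such as the GGGCGGGGCGG run of Rab3b, were counted once per promoter. These shares are descriptions and were not tested.

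TRAP of non-defeated mice was compared with input to ask which Rab mRNAs were associated with PV-neuron ribosomes more or less than in whole hippocampus. Rab3b was 8.09-fold and Rab3a 2.60-fold higher in TRAP, while Rab31, Rab15, Rab26 and Rab40b were each over 3-fold lower. At an adjusted p under 0.05 in edgeR's quasi-likelihood test, 38 of 56 members (67.9%) differed, against 55% of all genes tested. Of these, 20 were higher, where 27.4% of all genes were, and 18 lower, where 27.6% were. Over 2-fold, 3 members were higher and 9 lower, which was 21.4% of members against 23.8% of all genes. The median log2 fold change was 0.11 over the members and -0.04 over all genes. Ranges did not overlap between ND and input in 44 members (78.6%, against 62% of all genes). In bulk RNA, fewer cells of a type and less RNA per cell cannot be told apart. At the threshold, Rab9 was the last member inside (adjusted p = 0.0297) and Rab39 the first outside (adjusted p = 0.0801).

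**Figure D1:**
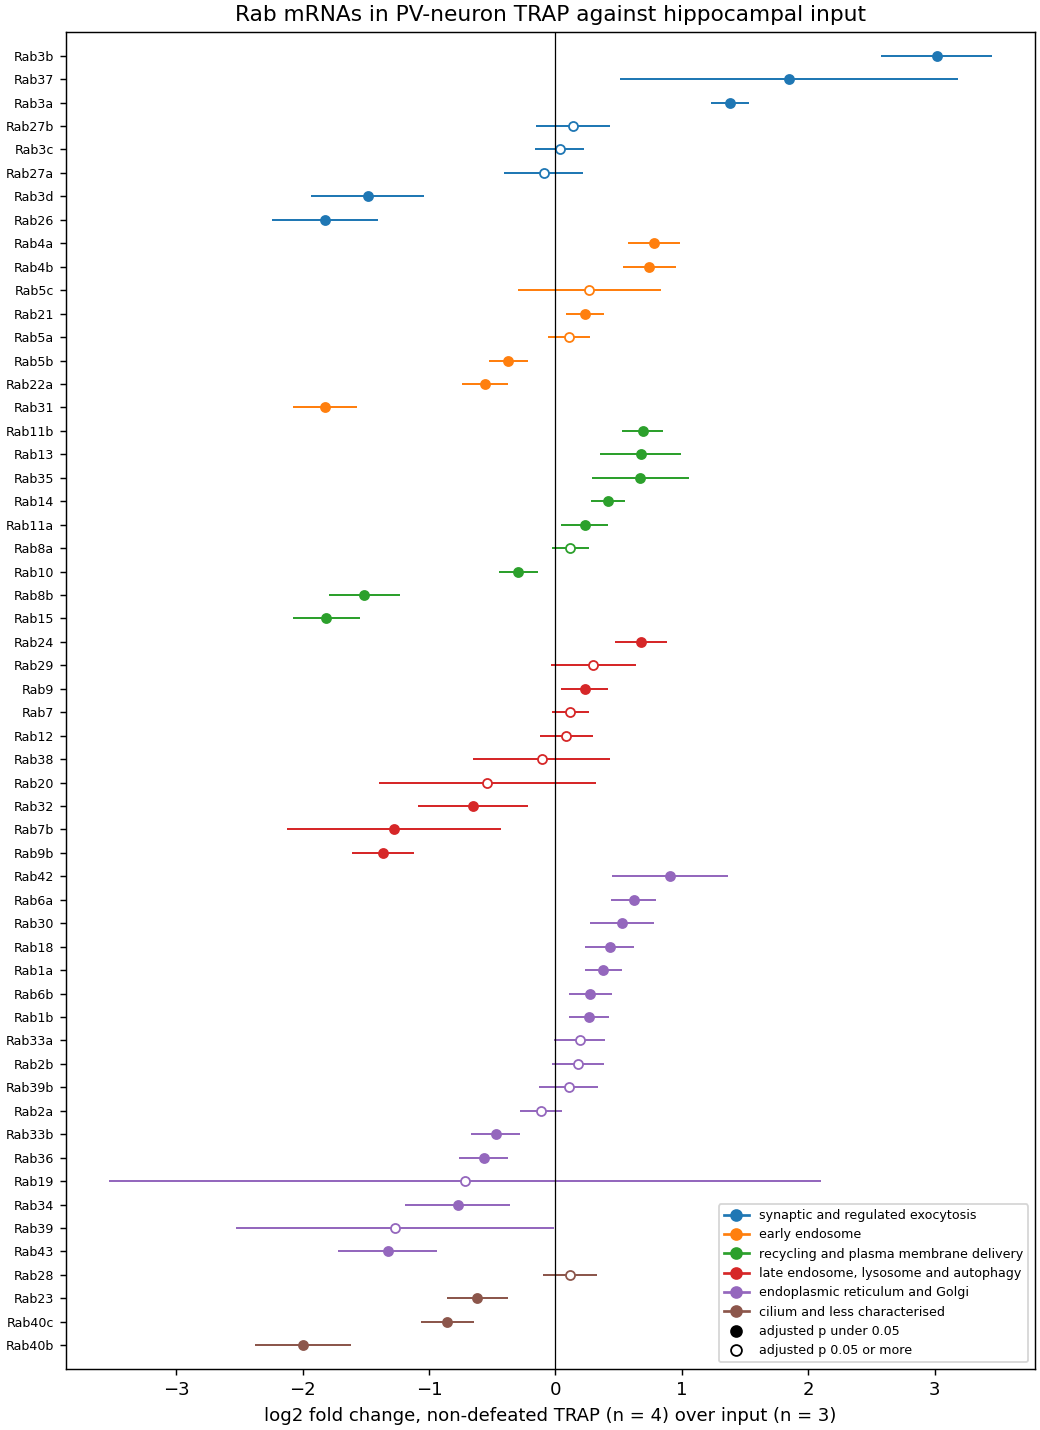
Log2 fold change of the 56 tested Rab genes in TRAP of non-defeated mice (n = 4) over input (n = 3), with 95% confidence intervals, coloured by role; filled points have an adjusted p under 0.05. Rab3b lies farthest to the right at 3.02, and Rab40b farthest to the left at -2.0.

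The members were then counted by role at the same threshold, where 27.4% of all genes were higher and 27.6% lower. Among the genes of synaptic and regulated exocytosis, 3 were higher, 2 lower and 3 did not pass. Rab3a, the most abundant synaptic vesicle Rab, had 2203, 2389, 2502 and 2247 CPM in ND libraries 11, 1, 6 and 9 against 899, 896 and 899 CPM in input libraries 12, 13 and 14. Every ND library lay above every input library, and the log2 fold change was 1.38 (SE 0.067, adjusted p = 2.97e-09). Rab3b had 723, 1072, 1026 and 746 CPM in ND and 113, 114 and 104 CPM in input. The groups were far apart (log2 fold change 3.02, SE 0.20, adjusted p = 3.00e-08), and ND libraries 1 and 6 were the higher pair. Of the Rab3b exon bases, 9.0% are shared with a gene on the opposite strand, whose reads cannot be told apart in a library that does not keep strand.

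Rab37, which is known from secretory granules, had 32.4, 15.1, 17.8 and 33.2 CPM in ND and 1.78, 3.09 and 15.6 CPM in input. The groups overlapped through input library 14, and the log2 fold change of 1.85 (SE 0.62, adjusted p = 0.0208) was 3.34 without that library. Without input library 12 or 13 Rab37 no longer passed (log2 fold changes 1.39 and 1.50, adjusted p = 0.0727 and 0.0884). Rab26, linked to the clearance of synaptic vesicles by autophagy, went the other way with 11.4, 11.9, 12.5 and 12.9 CPM in ND and 42.6, 47.5 and 39.4 CPM in input. Its log2 fold change was -1.82 (adjusted p = 2.09e-06) without overlap of the groups. Of the Rab26 exon bases, 9.4% are shared with Traf7 on the same strand. Rab3d, best known from exocrine secretion, had 7.97, 5.20, 6.59 and 6.35 CPM in ND and 17.6, 21.9 and 15.3 CPM in input, also without overlap (log2 fold change -1.48, adjusted p = 2.91e-05). Rab3c, Rab27a and Rab27b had log2 fold changes of 0.03, -0.09 and 0.14 with adjusted p-values of 0.767, 0.601 and 0.392.

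Of the 8 early endosome genes, 3 were higher and 3 lower. Rab4a and Rab4b, which act in fast recycling, were higher by 0.78 and 0.74 on the log2 scale (adjusted p = 5.77e-06 and 1.34e-05), although 65.0% of the Rab4b exon bases are shared with another gene model on the same strand. Rab31, which acts between the trans-Golgi network and endosomes, had 36.7, 41.4, 34.4 and 37.6 CPM in ND and 131, 128 and 139 CPM in input. All ND libraries were below all input libraries (log2 fold change -1.82, SE 0.12, adjusted p = 2.00e-08). Rab5b, a Rab of early endosome fusion, had 104, 95.7, 95.1 and 93.5 CPM in ND and 126, 126 and 124 CPM in input. It was lower in TRAP without overlap, by a small amount (log2 fold change -0.37, SE 0.068, adjusted p = 0.000346). Rab5a and Rab5c did not pass (log2 fold changes 0.11 and 0.27, adjusted p = 0.241 and 0.401).

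Among the recycling and plasma membrane delivery genes, 5 of 9 tested were higher and 3 lower. Rab11b, Rab13, Rab35, Rab14 and Rab11a were higher, by 0.23 to 0.69 on the log2 scale. Rab11b, at 0.69, is uncertain because the pseudogene Rab11b-ps2 also collected reads, with 136 CPM in ND and 85.7 CPM in input. Rab15, which slows receptor recycling at early endosomes, had 78.8, 90.0, 80.6 and 92.6 CPM in ND against 303, 313 and 286 CPM in input. The ND libraries were all lower (log2 fold change -1.81, SE 0.12, adjusted p = 3.07e-08). Rab8b, a paralog of Rab8a in delivery to the cell surface, had 31.7, 21.7, 26.6 and 32.0 CPM in ND against 84.7, 83.9 and 70.7 CPM in input. It was lower without overlap (log2 fold change -1.51, adjusted p = 2.50e-07), and Rab10 was lower by a smaller step (log2 fold change -0.29, adjusted p = 0.00199).

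**Figure D2:**
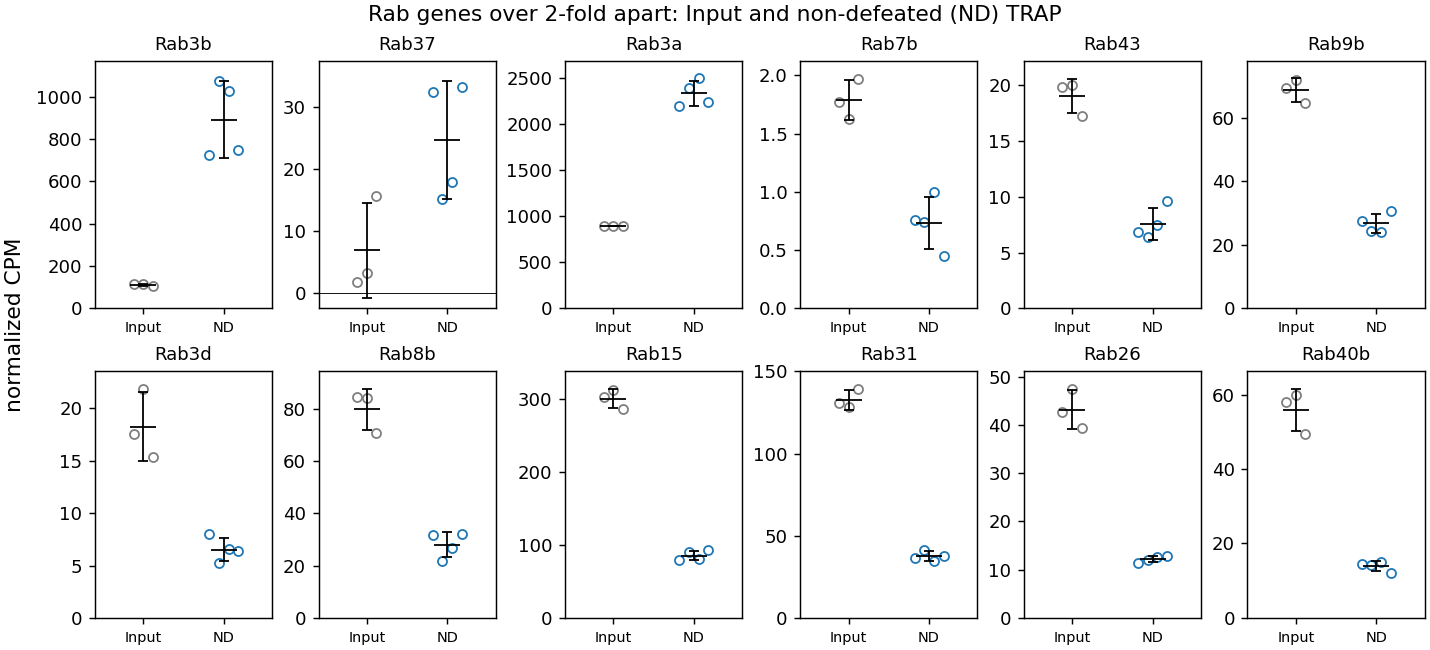
Normalized CPM (linear axes from 0, or below 0 where an error bar reaches there) in the 3 input and 4 ND TRAP libraries for the 12 Rab genes over 2-fold apart at an adjusted p under 0.05; circles are libraries, bars the mean ± SD. Rab37 is the only panel in which the circles of the 2 groups overlap.

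In the late endosome, lysosome and autophagy group, 2 of 10 genes were higher and 3 lower. Rab9b, the paralog of Rab9 in transport from late endosomes to the trans-Golgi network, had 27.7, 24.5, 24.0 and 30.8 CPM in ND and 69.4, 72.1 and 64.7 CPM in input. The groups did not overlap (log2 fold change -1.36, SE 0.11, adjusted p = 1.86e-07), while Rab9 itself was slightly higher (log2 fold change 0.23, adjusted p = 0.0297). Rab7b, which acts between endosomes and the Golgi, was scarce, with 0.758, 0.739, 0.998 and 0.451 CPM in ND and 1.77, 1.63 and 1.96 CPM in input (log2 fold change -1.27, adjusted p = 0.0130). Rab24, a Rab tied to autophagy, was higher (log2 fold change 0.68), but 62.4% of its exon bases are shared with Prelid1 on the opposite strand. Rab7, among the 5 most abundant members, had 570, 551, 557 and 607 CPM in ND and 522, 530 and 527 CPM in input. Its ranges did not overlap, yet the log2 fold change of 0.12 did not pass (adjusted p = 0.129).

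Of the 17 genes of the endoplasmic reticulum and Golgi, 7 were higher, 4 lower and 6 did not pass. Rab6a had 1365, 1602, 1496 and 1391 CPM in ND and 949.7, 980.2 and 930.3 CPM in input. It was higher in every ND library (log2 fold change 0.62, adjusted p = 1.31e-05). Of the Rab6a exon bases, 19.0% are shared with Mrpl48 on the opposite strand. Rab2a had 521, 526, 499.6 and 529.7 CPM in ND against 552, 590.1 and 542 CPM in input, and did not pass (log2 fold change -0.11, adjusted p = 0.213). Rab43, a Rab of Golgi-directed receptor traffic, had 6.89, 6.37, 7.49 and 9.64 CPM in ND and 19.8, 20.03 and 17.2 CPM in input. It was lower without overlap (log2 fold change -1.32, adjusted p = 2.35e-05), with 75.4% of its exon bases shared with another gene model on the same strand. In the group of ciliary and less characterised Rabs, 3 of 4 tested genes were lower and 0 higher. The lowest fold change was that of Rab40b, a member of the Rab40 subgroup that acts with ubiquitin ligases, at 14.6, 14.2, 15.1 and 12.1 CPM in ND and 58.0, 60.0 and 49.5 CPM in input (log2 fold change -2.0, SE 0.17, adjusted p = 3.78e-07). Its paralog Rab40c had a log2 fold change of -0.85 (adjusted p = 3.76e-06).

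Paralogs of one subfamily differed between TRAP and input in their share of the subfamily's RPKM. Rab3a and Rab3b made up 79.4% ± 2.26 and 19.0% ± 2.42 of Rab3 RPKM in ND, and 88.1% ± 0.436 and 6.83% ± 0.316 in input. Rab8a held 74.0% ± 3.82 of Rab8 RPKM in ND and 47.9% ± 2.67 in input. Rab9 held 75.0% ± 2.31 against 49.8% ± 0.992. In these 3 subfamilies the ranges of ND and input shares did not overlap. The same held for Rab11a and Rab11b and for Rab5a and Rab5b, but not for Rab5c. Rab11a held 46.7% ± 2.30 of its pair in ND and 54.7% ± 1.55 in input, and Rab5b 32.2% ± 1.39 and 40.2% ± 1.11 of Rab5 RPKM. Rab4a and Rab4b kept nearly equal proportions, with 45.7% ± 1.68 for Rab4a in ND and 45.0% ± 0.104 in input. Across the stress groups the Rab3b share was 18.6% ± 3.80 in Res and 19.6% ± 1.05 in Sus, within the spread of ND.

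**Figure D3:**
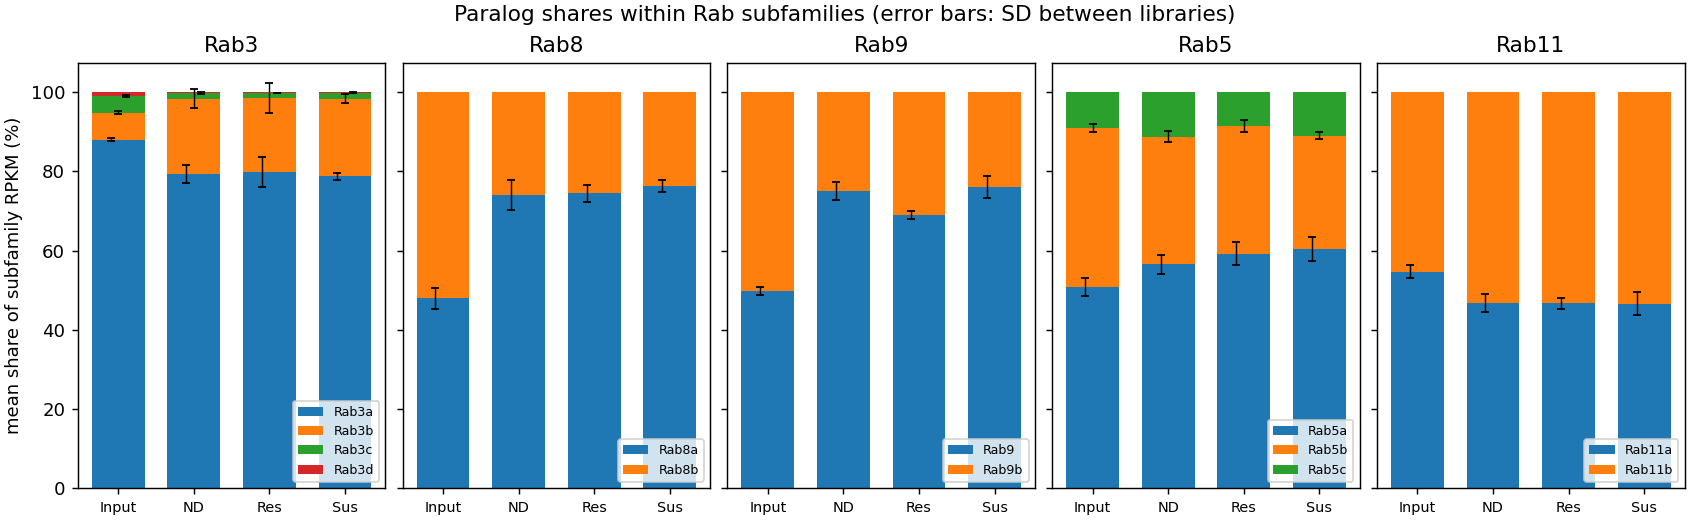
Mean share (%) of each paralog in the summed RPKM of its subfamily in the 3 input, 4 ND, 4 Res and 3 Sus libraries; error bars are the SD of the share below each boundary. Rab8a and Rab9 hold 74.0% and 75.0% in ND against 47.9% and 49.8% in input, while Rab5b holds 32.2% in ND and Res and 28.7% in Sus.

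Resilient and non-defeated mice were compared to ask which members differed after defeat without social avoidance. At an adjusted p under 0.05, 0 of 56 members were called by edgeR, and 0% of all genes, and DESeq2 called 0 members as well. At an unadjusted p under 0.05 DESeq2 gave 3 members, and its share of all genes was not counted. At the same threshold edgeR gave 1 member (1.79%), against 4.38% of all genes in either direction and 2.16% lower. The member was Rab9, which moves cargo from late endosomes to the trans-Golgi network, with 35.0, 37.3, 33.5 and 35.2 CPM in ND and 29.5, 33.9, 29.1 and 29.5 CPM in Res libraries 3, 5, 7 and 8. Res library 5 lay within the ND range, and the log2 fold change was -0.21 (SE 0.077, unadjusted p = 0.0170, adjusted p = 1, 2-sided exact permutation p = 0.0571 where the smallest possible is 0.0286). Next in order were Rab9b, at 29.7, 32.7, 30.4 and 31.7 CPM in Res (log2 fold change 0.22, unadjusted p = 0.0502), and Rab5c, at 12.3, 12.98, 7.90 and 17.7 CPM in Res against 15.5, 20.6, 21.2 and 13.5 CPM in ND (log2 fold change -0.48, unadjusted p = 0.0654). Both overlapped with ND. Between Res and ND, 1 member did not overlap (1.79%, against 2.35% of all genes). For Rab5b the Res libraries had 89.7, 85.9, 90.1 and 98.2 CPM, which overlapped with ND at library 8 (log2 fold change -0.09, SE 0.063, unadjusted p = 0.159).

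Susceptible and non-defeated mice were compared in the same fit. At an adjusted p under 0.05, 0 of 56 members were called by edgeR, against 0.0376% of all genes, and 0 by DESeq2. At an unadjusted p under 0.05 DESeq2 gave 4 members, and its share of all genes was not counted. At the same threshold edgeR gave 5 members (8.93%), against 13.3% of all genes. The 3 higher members compare with 6.61% of all genes and the 2 lower with 6.7%. The smallest p was that of Rab5b, at 78.9, 76.8 and 79.7 CPM in Sus libraries 10, 2 and 4 against 104, 95.7, 95.1 and 93.5 CPM in ND. All Sus libraries lay below all ND libraries, and the log2 fold change was -0.31 (SE 0.069, unadjusted p = 0.000515, adjusted p = 0.132). The 2-sided exact permutation p was 0.0286, the smallest that 3 against 4 libraries can give. It was computed on the same libraries in which Rab5b had the smallest p, so it is no separate support.

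Rab14, which carries cargo between Golgi and recycling endosomes, had 507, 488 and 496 CPM in Sus against 420, 447, 445 and 432 CPM in ND. The groups did not overlap (log2 fold change 0.19, SE 0.059, unadjusted p = 0.00644, adjusted p = 0.221). Rab10, a Rab of delivery to the plasma membrane and axon, had 222, 193 and 204 CPM in Sus against 232, 242, 230 and 234 CPM in ND, again without overlap (log2 fold change -0.19, unadjusted p = 0.0157). Rab32, tied to mitochondria and lysosome-related organelles, had 3.83, 4.75 and 3.45 CPM in Sus and 2.22, 3.30, 2.11 and 3.54 CPM in ND, with overlap (log2 fold change 0.52, unadjusted p = 0.0199). Rab13, a Rab of junctional delivery, had 7.48, 7.74 and 8.71 CPM in Sus and 5.95, 6.64, 6.68 and 6.33 CPM in ND (log2 fold change 0.32, unadjusted p = 0.0414). It kept an unadjusted p under 0.05 in 3 of 8 other settings and in 1 of 7 fits that left out a library (without Sus library 10), with p up to 0.140 in the others. By edgeR, Rab32 no longer passed in 1 of the 8 settings and without ND library 6 or 11 or Sus library 2, and Rab10 no longer passed in 2 of the 8 settings and without Sus library 2. Between Sus and ND, 5 members did not overlap (8.93%, against 8.62% of all genes).

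Susceptible and resilient mice were compared to ask which members differed with the outcome of defeat. Rab14 was 1.20-fold higher in susceptible mice and was the 1 member at an adjusted p under 0.05 (1.79%, against 1.89% of all genes). Its levels were 507, 488 and 496 CPM in Sus and 410, 438, 407 and 399 CPM in Res, without overlap (log2 fold change 0.26, SE 0.059, adjusted p = 0.0427, 2-sided exact permutation p = 0.0286, the smallest possible). The call was held in 4 of 8 other settings, with adjusted p from 0.0296 to 0.182, and was lost without Res library 3, 7 or 8 or Sus library 2 or 4 (adjusted p = 0.0623, 0.115, 0.109, 0.139 and 0.0787). Rab5b was the first member outside the threshold, with Sus below Res in every library (log2 fold change -0.21, SE 0.069, unadjusted p = 0.00772, adjusted p = 0.106, exact permutation p = 0.0286). The permutation p-values of Rab14 and Rab5b rest on the same libraries as the edgeR test and are no separate support.

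At an unadjusted p under 0.05 there were 9 members (16.1%), against 20.9% of all genes. The 4 higher members compare with 10.8% of all genes and the 5 lower with 10.1%. Besides Rab14 and Rab5b, Rab10 had 222, 193 and 204 CPM in Sus against 243, 229, 228 and 243 CPM in Res, without overlap (log2 fold change -0.19, unadjusted p = 0.0126). Rab32 had 2.77, 2.51, 2.46 and 3.15 CPM in Res, all below the Sus libraries (log2 fold change 0.56, unadjusted p = 0.0139). The 2 Rab9 paralogs had opposite signs. Rab9 had 35.1, 35.2 and 37.0 CPM in Sus, all above the Res libraries (log2 fold change 0.23, unadjusted p = 0.0150), and Rab9b had 29.6, 21.8 and 25.6 CPM, all below (log2 fold change -0.28, unadjusted p = 0.0260). The Rab9 share of the pair was 69.0% ± 0.997 in Res and 76.1% ± 2.87 in Sus, with 75.0% ± 2.31 in ND. Res was the low group of these 3.

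Rab1b, which acts from the endoplasmic reticulum to the Golgi, had 287, 305 and 313 CPM in Sus and 361, 345, 339 and 314 CPM in Res (log2 fold change -0.17, unadjusted p = 0.0260), with Sus library 4 just below Res library 8. Rab35, a Rab of fast endocytic recycling, had 28.3, 44.3 and 40.9 CPM in Sus and 29.0, 33.1, 23.1 and 28.1 CPM in Res (log2 fold change 0.42, unadjusted p = 0.0289). In ND its level was 38.0 and 38.6 CPM in libraries 1 and 6 and 26.1 and 27.4 CPM in libraries 9 and 11. Within the libraries numbered 1 to 6 the difference of Sus from Res was 0.46, and within those numbered 7 to 11, where Sus has 1 library, it was 0.15 on the log2 CPM scale. For Rab14 these differences were 0.21 and 0.33, and for Rab5b -0.17 and -0.25. They shrank from -0.25 to -0.08 for Rab10 and from -0.40 to -0.07 for Rab9b. Rab32 had 0.61 and 0.46, Rab9 0.19 and 0.26, and Rab1b -0.19 and -0.18. The labels do not name this split of the sample numbers. Rab43 was the ninth member (log2 fold change -0.41, unadjusted p = 0.0422). Without Sus library 2 the unadjusted p was 0.0689 for Rab10, 0.0792 for Rab32, 0.151 for Rab9b and 0.150 for Rab35. Rab9b also missed the threshold without Res library 5 or Sus library 4, Rab35 without Res library 7 or 8 or Sus library 4, and Rab1b without Res library 3 or 5 or Sus library 10. Between Sus and Res, 11 members did not overlap (19.6%, against 15.1% of all genes). The haemoglobin level moved with the same contrast, as given above.

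**Figure D4:**
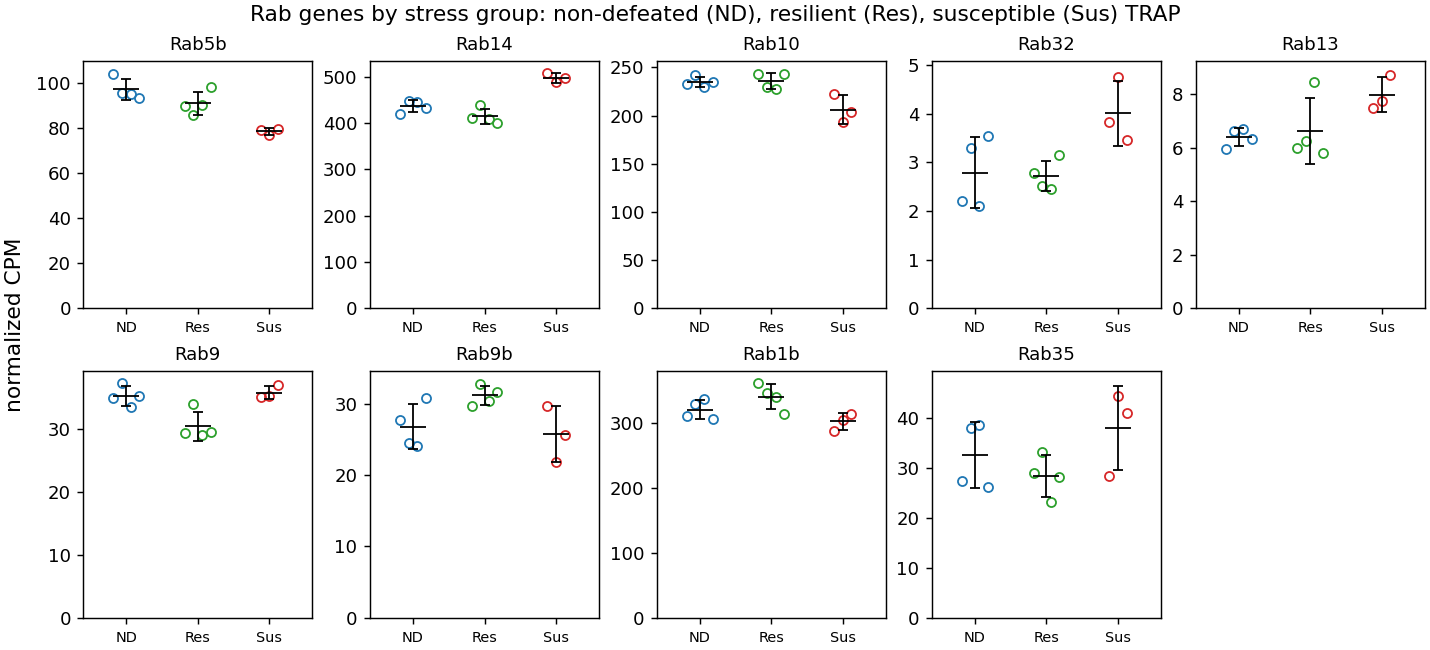
Normalized CPM (linear axes from 0) of 9 Rab genes with an unadjusted p under 0.05 in Sus against ND or Sus against Res, in the 4 ND, 4 Res and 3 Sus TRAP libraries; circles are libraries and bars the mean ± SD. The 3 Sus libraries lie below all others for Rab5b (76.8 to 79.7 CPM) and above all others for Rab14 (488 to 507 CPM).

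Across the 11 TRAP libraries the members varied little. The coefficient of variation had a median of 9.06% over the tested members and 19.0% over all genes tested. At 10 CPM or more it was 7.77% for 43 members and 12.7% for 10017 genes, and the least variable member was Rab8a with 3.40%. Of the members at 10 CPM or more with an unadjusted p of 0.05 or above, the 95% confidence interval of the log2 fold change lay within 0.5 of 0 on either side for 39 of 42 in Res against ND, 35 of 40 in Sus against ND and 32 of 36 in Sus against Res. The synaptic group as a whole had 1340 ± 61.3 RPKM in Res and 1364 ± 88.1 in Sus, against 1340 ± 109 in ND. The interval of Rab37 in Sus against Res reached down to -1.71 on the log2 scale, with Res library 7 at 60.0 CPM and all other TRAP libraries at 15.1 to 33.2 CPM.

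Rab25, an epithelial Rab11 relative, and Rab44 did not pass the filter, with at most 13 and 12 counts in any library. Rab17, another epithelial Rab, had at most 2 counts. Differences of these 3 genes were not detectable at this depth.

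The regulators of the Rab cycle were described from lists of partner genes, and the activity of each product was not checked. In TRAP of non-defeated mice against input, 17 of 32 exchange factors were lower and 5 higher at an adjusted p under 0.05, where 27.6% and 27.4% of all genes were lower and higher. Sbf2 and Dennd2a, both DENN-domain exchange factors, were lower by log2 fold changes of -1.62 and -1.70 (adjusted p = 1.68e-07 and 1.74e-06). Mon1a, part of the Rab7 exchange factor, and Rabgef1, an exchange factor for Rab5, were higher by 0.64 and 0.33 (adjusted p = 3.55e-05 and 0.00623). Of 37 genes listed as GAPs, 16 were lower and 7 higher. A GAP activity toward a Rab may not be established for each gene on this list. Tbc1d14 fell from 121 ± 2.39 CPM in input to 38.2 ± 3.05 in TRAP (log2 fold change -1.66, adjusted p = 5.42e-09) and Rabgap1l had a log2 fold change of -1.46. Tbc1d4, the GAP of glucose transporter traffic, rose from 4.94 ± 0.741 to 17.3 ± 1.79 CPM (log2 fold change 1.80, adjusted p = 2.15e-07), and Tbc1d7 had a log2 fold change of 0.88.

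For the lists that follow, 27.6% of all genes were lower and 27.4% higher at the same threshold. Effectors were lower in 15 of 33 and higher in 4. Rab11fip4, a Rab11 effector, was lower (log2 fold change -1.47, adjusted p = 4.11e-07), and so was Rilpl1 (log2 fold change -0.80), while Rab11fip5 and the Rab3 effector Rph3a (rabphilin) were higher (log2 fold changes 1.29 and 0.64, adjusted p = 3.00e-08 and 8.16e-06). Among 8 genes of GDP dissociation inhibition and prenylation, 4 were higher, led by Rabac1 and Rabggtb (log2 fold changes 1.30 and 0.68), and Chm was lower (log2 fold change -0.46). Of 3 genes for Rab kinases and a Rab phosphatase, the phosphatase gene Ppm1h was higher (log2 fold change 0.86, adjusted p = 8.18e-06). The medians of the lists were -0.53 for exchange factors, -0.24 for GAPs, -0.40 for effectors and 0.28 for the inhibitor and prenylation genes, beside -0.04 for all genes. With an offset for gene length, 15 exchange factors were lower and 6 higher. The same offset gave 11 lower and 9 higher GAPs, and 13 lower and 7 higher effectors.

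Between the stress groups, GAP genes were counted in the same way. In Sus against Res, 13 of 37 were lower and 2 higher at an unadjusted p under 0.05, and the other 22 did not pass. Of all genes, 10.1% were lower and 10.8% higher. At an adjusted p under 0.05, 2 of 37 were lower and 0 higher, where 1.89% of all genes passed in either direction. Tbc1d10b had 115 ± 5.70 CPM in Sus and 147 ± 8.85 in Res (log2 fold change -0.36, SE 0.079, adjusted p = 0.0411), and Tbc1d22b 26.1 ± 1.05 against 32.8 ± 1.53 CPM (log2 fold change -0.33, SE 0.076, adjusted p = 0.0453). Tbc1d13 and Evi5 lay on the higher side (log2 fold changes 0.72 and 0.29, unadjusted p = 0.00329 and 0.00808). The median was -0.19, beside 0.00 for all genes. The count of lower genes was 6 without Sus library 2 and 8 without Res library 5 or 8. In Sus against ND, 9 GAPs were lower and 1 higher, where 6.7% and 6.61% of all genes were, and lower counts ran from 4 (without ND library 9) to 16 (without ND library 1). In Res against ND, 1 was lower and 0 higher, beside 2.16% and 2.22% of all genes, and the higher count reached 3 without ND library 9. The share of all genes was not counted with a library left out, so a change in these counts may not be particular to GAP genes. The list as a whole was not tested, and the haemoglobin and other interneuron marker levels given above belong to the same libraries.

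**Figure D5:**
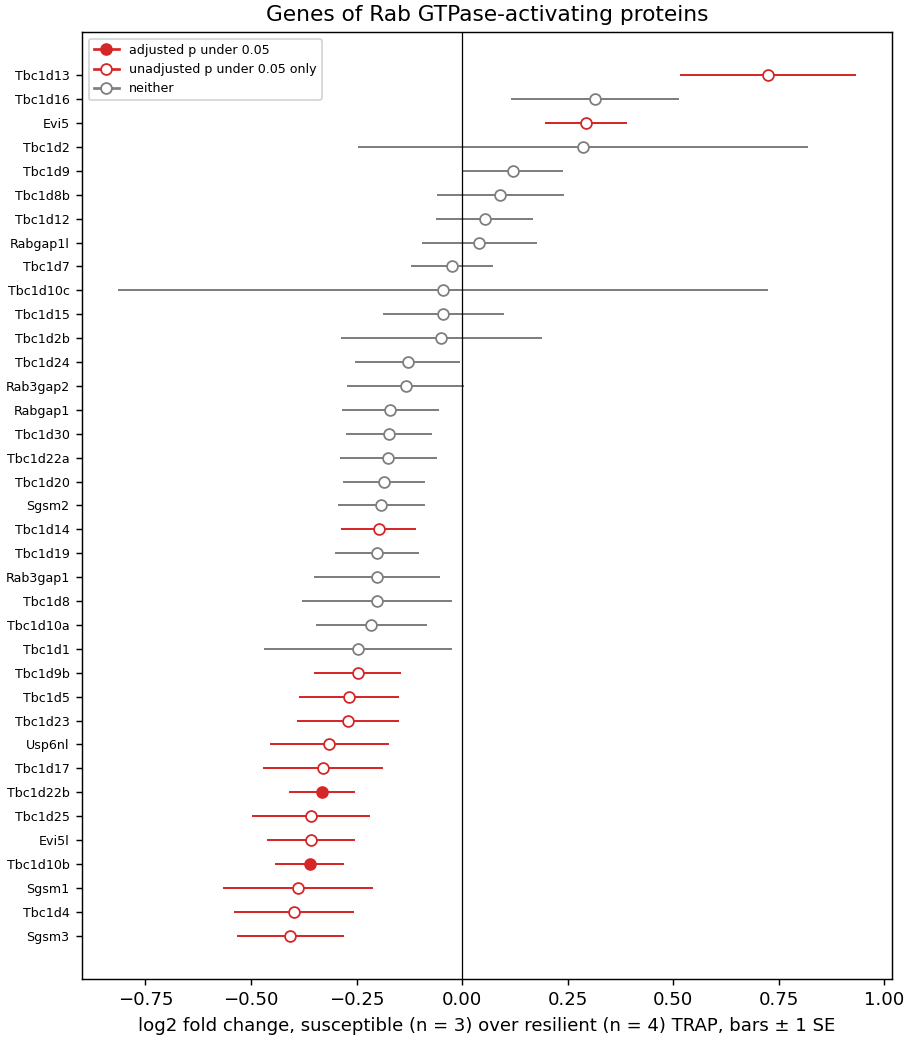
Log2 fold change of 37 genes listed as Rab GTPase-activating proteins in Sus (n = 3) over Res (n = 4) TRAP, bars ± 1 SE. Red marks an unadjusted p under 0.05 and filled points an adjusted p under 0.05. Red points lie to the left of 0 for 13 genes and to the right for 2, and the filled ones are Tbc1d10b (-0.36) and Tbc1d22b (-0.33).

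In the other lists 1 of 32 exchange factors and 1 of 33 effectors passed an adjusted p under 0.05 in Sus against Res, where 1.89% of all genes did. Dennd6b had 9.60 ± 0.649 CPM in Sus and 13.5 ± 1.31 in Res (log2 fold change -0.49, adjusted p = 0.0468). Rab11fip3, an effector of Rab11 at recycling endosomes, had 70.6 ± 3.22 against 97.3 ± 7.58 CPM (log2 fold change -0.46, adjusted p = 0.0389). At an unadjusted p under 0.05, 5 exchange factors were lower and 1 higher, and 5 effectors were lower and 4 higher, where 10.1% and 10.8% of all genes were. Leaving out 1 library gave 3 (without Sus library 2) to 6 lower and 0 (without Sus library 2) to 2 (without Res library 3) higher exchange factors, and 3 (without Res library 7 or 8 or Sus library 2 or 10) to 5 lower effectors. Sus against ND and Res against ND gave 0 partner genes at an adjusted p under 0.05, where 0.0376% and 0% of all genes passed. At an unadjusted p under 0.05 Sus against ND gave 4 lower and 2 higher of the exchange factors and 4 lower and 5 higher of the effectors, where 6.7% and 6.61% of all genes were lower and higher. Leaving out 1 library gave 2 (without Sus library 10) to 6 lower exchange factors and 1 (without ND library 6, 9 or 11 or Sus library 2) to 3 higher ones. For effectors it gave 1 (without ND library 9) or 2 (without ND library 11 or Sus library 10) to 5 lower, and 2 (without ND library 11 or Sus library 2) or 3 (without ND library 9) to 8 (without Sus library 4) higher. Res against ND gave 1 lower and 3 higher exchange factors and 0 lower and 2 higher effectors, where 2.16% and 2.22% of all genes were. Without 1 library these were 0 to 2 (without Res library 8) and 1 (without ND library 1 or Res library 3) to 4 exchange factors, and 0 to 1 (without ND library 9 or Res library 8) and 2 to 4 (without ND library 9) effectors. With a library left out, the share of all genes was not counted, so changes in these counts may not be particular to the lists. The 3 stress comparisons share libraries, so their counts are not independent.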

How the data were processed

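TRAP RNA of hippocampal PV neurons was sequenced in 11 samples and input RNA in 3 samples of non-defeated mice. The sources used here do not say whether the samples of a group came from separate animals, so p-values measure only the spread between these samples, which may be technical. A table of raw counts for the 14 libraries was deposited. Reads had been cleaned with fastp, and the submitters' processing notes name mm10, STAR 2.5.3a and HTSeq; the counting settings are not given in the sources used here, and the library kit does not keep strand. Groups came from the labels, 0 columns were left out, and the groups share no sample numbers. Genes were named from GENCODE release M21 (GRCm38), with 37693 of 39017 identifiers matched and 0.824% of counts left without a name.

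The fit used edgeR 4.0.16 in R 4.3.3 (TMM, filterByExpr, glmQLFit and glmQLFTest, all 14 libraries in 1 fit, 2-sided, Benjamini-Hochberg over 21298 genes). CPM were normalized by TMM, and RPKM were computed from them and the exon length of each gene. Rab5b and the member with the smallest p in each stress comparison were also tested by exact permutation of log2 CPM (prior count 2). These genes were picked with the values of the same libraries known. Named were Rab5b, members over 2-fold apart in TRAP against input, members at an unadjusted p under 0.05 between stress groups (at most 8, or the 3 smallest p), the 5 highest RPKM, and for partner lists the 2 genes per direction with the smallest p; others are given as examples of a group. Not every partner gene that this rule names is reported here. The members and lists were chosen with earlier results of these data known. Replicates of a group differed by more than counting error (lowest chi-square per degree of freedom 14.0). Alternatives were the likelihood ratio test, DESeq2 1.42.0, RLE size factors, other filters, subsets of libraries, a covariate for the sample number, offsets for GC content and length, and leaving out each library. The tests were tried on simulated counts for Sus against ND, in which 200 genes were changed 2-fold up or down. Smaller differences, such as most of those of Rab genes between stress groups, were not simulated.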

Additional observations from a re-analysis of the deposited data

Results flagged for a closer look

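In groups of 4 libraries, 48 sets of values of named members were examined for 1 library far from the other 3, and 2 were marked, where chance marks about 1 in 20. Rab13 had 8.44 CPM in Res library 7, against 5.80 to 6.23 CPM in the other Res libraries. Rab9 had 33.9 CPM in Res library 5, against 29.1 to 29.5 CPM in the others.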

How the results depend on the processing

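In TRAP against input, 36 to 42 members passed an adjusted p under 0.05 over 8 settings, and 35 to 38 when each library was left out. For Res against ND and Sus against ND the adjusted count was 0 in every setting run. Of 499 values of named members under other settings, 448 kept their direction and side of the threshold, 37 no longer passed, 14 newly passed and 0 changed sign. Outside the named genes, Rab33a went from 0.19 to -0.05 with an offset for gene length.

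The unadjusted count for Res against ND (1) was 2 with RLE size factors, without a filter, with at least 10 counts in every library and with only the 2 groups compared, 3 with DESeq2 and with the sample number as a covariate, and 1 to 4 when each library was left out (4 without ND library 11, 3 without ND 9 or Res 3, 2 without ND 1 or Res 8). For Sus against ND (5) it was 2 with only the 2 groups compared and 3 to 8 when each library was left out (3 without ND 6 or Sus 2, 8 without ND 1 or Sus 10). For Sus against Res the adjusted count (1, Rab14) was 0 without a filter, with DESeq2, with only the 2 groups compared and with only the 11 TRAP libraries, and 0 to 1 when each library was left out. The unadjusted count (9) was 5 with only the 2 groups compared and 4 to 12 when each library was left out (4 without Sus 2). The cause was not tested. Shares of all genes were not counted under the other settings, so these changes may not be particular to Rab genes. Partner lists were recounted under settings chosen after seeing the data, and GAP genes on the lower side in Sus against Res numbered 10 to 13 over 3 settings and 6 to 15 when each library was left out. No paired analysis was possible because the groups share no sample numbers.

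With 3 or 4 samples a group and members near 10 CPM or below, small differences were not resolved, and members that overlap other genes or have a pseudogene carry an uncertainty that replicates do not show.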
